A study of Homo sapiens with 9 samples.

Results

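The genes described here encode the collagen chains and the enzymes that finish them, in A673 cells, an established Ewing sarcoma line. They are the rows of the deposited count table whose symbol is COL, a number, A and a number, plus 3 prolyl 4-hydroxylase subunits (P4HA1, P4HA2 and P4HA3), the prolyl 3-hydroxylase LEPRE1 (now P3H1), 3 lysyl hydroxylases (PLOD1, PLOD2 and PLOD3) and the collagen chaperone SERPINH1. A row also needed a summed count of at least 20 over the 9 libraries. This gave 45 genes of 23368 in the table, of which 37 are collagens and 8 are enzymes or the chaperone. COL14A1, COL22A1, COL4A5, COL4A6, COL6A6 and COL9A1 matched by symbol but stayed under that sum.

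Collagens are triple-helical matrix proteins whose chains are wound together in the endoplasmic reticulum. Prolyl 4-hydroxylases modify prolines and so make the helix stable at body temperature, prolyl 3-hydroxylase acts on a few prolines with a cyclophilin partner, lysyl hydroxylases prepare lysines for sugars and cross-links, and SERPINH1 (HSP47) holds the finished helix until it leaves the endoplasmic reticulum. Fibrillar collagens (types I, III, V, XI and XXVII among others) form the banded fibres of connective tissue, type IV forms the basement membrane network and type VI forms beaded filaments around cells. Ewing sarcoma is a tumour of bone and soft tissue driven by a fusion of EWSR1 with an ETS factor, and its cells share many features with mesenchymal progenitors.

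RNA sequencing was done on 9 libraries: 3 with the siRNA siLRWD1-5, 3 with the siRNA siLRWD1-6 and 3 with a scrambled siRNA. LRWD1 binds the origin recognition complex at sites where DNA replication begins. Every group received 13 nM siRNA by lipid transfection and was collected after 48 h, in 3 independent experiments per the labels, and all cells grew in tetracycline-free serum with Zeocin and blasticidin. The groups therefore share the line and the selection drugs, and each siRNA is a single reagent. Levels are given as CPM, counts scaled to library depth with TMM factors, and a gene is called higher or lower at an adjusted p under 0.05 in the quasi-likelihood test of edgeR, adjusted over all tested genes by Benjamini-Hochberg.

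LRWD1 had 10.6, 11.3 and 10.4 CPM in the siLRWD1-5 libraries and 6.55, 8.11 and 8.55 CPM in the siLRWD1-6 libraries, against 49.1, 54.6 and 49.3 CPM in the scrambled libraries. Library totals ran from 11971179 to 15674452 counts. Scrambled replicate 2 stood apart for the collagens: relative to the mean of the other scrambled libraries, 6 of 36 tested members were lower and 6 were higher by over 0.5 on the log2 scale, against 1334 and 932 of 13648 tested genes. It was low in COL3A1 (-1.18), COL1A2 (-1.03), COL16A1 (-0.96) and COL5A3 (-0.84), and high in COL17A1 (2.83), COL8A1 (1.23), COL6A3 (1.07) and COL11A1 (0.71), so values without it are given where a call changes and for the genes it moves most. Of 10 Ewing sarcoma markers looked for, 9 were expressed, and CD99 had at most 3.7 CPM in any library. Whether CD99 RNA was absent or its reads were not assigned to that row cannot be told from the counts. The summed level of the 10 markers was 2030.0 to 2350.0 CPM with siLRWD1-5 and 2550.0 to 2790.0 CPM with siLRWD1-6, against 2810.0 to 3720.0 CPM with scrambled siRNA, so it moved with the groups. Most of this sum was CCND1, which averaged 1650, 1940 and 2390 CPM in that order of groups. With siLRWD1-6, FLI1 (83.0 against 71.1 CPM) and NR0B1 (49.7 against 44.1 CPM) averaged above scrambled. The other expressed markers then averaged below scrambled or level with it. The part of these markers in the results was not tested. The summed level of 5 fibroblast markers was 99.2 to 124.0 CPM with siLRWD1-5, 102.0 to 115.0 CPM with siLRWD1-6 and 103.0 to 135.0 CPM with scrambled siRNA, nearly all of it THY1, while the defining matrix genes DCN and LUM stayed at or under 1.39 CPM. Markers of endothelial, blood and epithelial cells summed to at most 1.22, 0.593 and 1.13 CPM in any library.

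With siLRWD1-5, the members that changed were mostly higher. Of the 36 members with enough counts to test, 15 were called higher and 3 lower than with scrambled siRNA, beside 18.5% of all tested genes called higher and 20.3% called lower (38.8% in either direction). The share of tested members called higher was 41.7%, and the share called lower was 8.33%. Their median log2 fold change was 0.39, against -0.01 over all tested genes. The sizes were mostly modest, and the exceptions were COL8A2, P4HA2, COL6A5, COL11A2 and COL11A1, with log2 fold changes of 0.99 to 1.69. In bulk RNA, fewer cells expressing a gene and less RNA per cell cannot be told apart. COL6A5 passed the filter on low counts only through the siLRWD1-5 libraries, where it is high, so its call is not independent of that filter.

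With siLRWD1-6, the members with the largest called changes were the type I collagen chains. There were 8 called higher and 1 called lower, beside 8.81% of all tested genes called higher and 7.78% called lower (16.6% in either direction). The shares of tested members were 22.2% and 2.78%, and the median log2 fold change was 0.11, against -0.02 over all tested genes. COL1A1 and COL1A2 rose by 1.01 and 1.04 on the log2 scale. Without scrambled replicate 2 the siLRWD1-6 counts were 10 higher and 3 lower, while over all tested genes 2115 were higher and 1838 lower, against 1203 and 1062 with it. The siLRWD1-5 counts were then 17 and 3, while over all tested genes they were 3326 and 3464, against 2527 and 2765 with it. The siLRWD1-6 count of higher members was 5 without siLRWD1-6 replicate 1 or without siLRWD1-6 replicate 3.

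Set directly against each other, siLRWD1-6 libraries had 7 members called higher and 11 called lower than siLRWD1-5 libraries, beside 22.4% and 20.9% of all tested genes (43.4% in either direction). The shares of tested members were 19.4% and 30.6%, and the median log2 fold change was -0.08, against -0.01 over all tested genes. Over all tested genes 3063 were called higher and 2856 lower. These became 2478 and 3609 with library size as the only scaling, while the members became 5 and 11. This comparison does not involve the levels of the scrambled libraries, which both comparisons above share. The scrambled libraries do enter it through the shared estimate of the spread. The members lower with siLRWD1-6 than with siLRWD1-5 were COL5A2, COL6A1, COL6A3, COL6A5, COL7A1, COL8A2, COL11A1, COL11A2, COL25A1, P4HA2 and SERPINH1. The COL6A5 call is again not independent of the filter, which this gene passed only through its higher group. Those higher were COL1A1, COL4A1, COL5A3, COL13A1, COL21A1, COL27A1 and P4HA1. The count of higher members was 4 without siLRWD1-5 replicate 3, siLRWD1-6 replicate 1 or siLRWD1-6 replicate 3. With only the 6 siRNA libraries fitted, COL1A2 (0.55, adjusted p = 0.005), COL5A1 (0.20, adjusted p = 0.0073) and COL12A1 (0.35, adjusted p = 0.00013) were also called higher. In that fit COL3A1 (-0.71, adjusted p = 2.7e-05) and COL8A1 (-0.58, adjusted p = 0.0058) were also called lower.

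**Figure D1:**
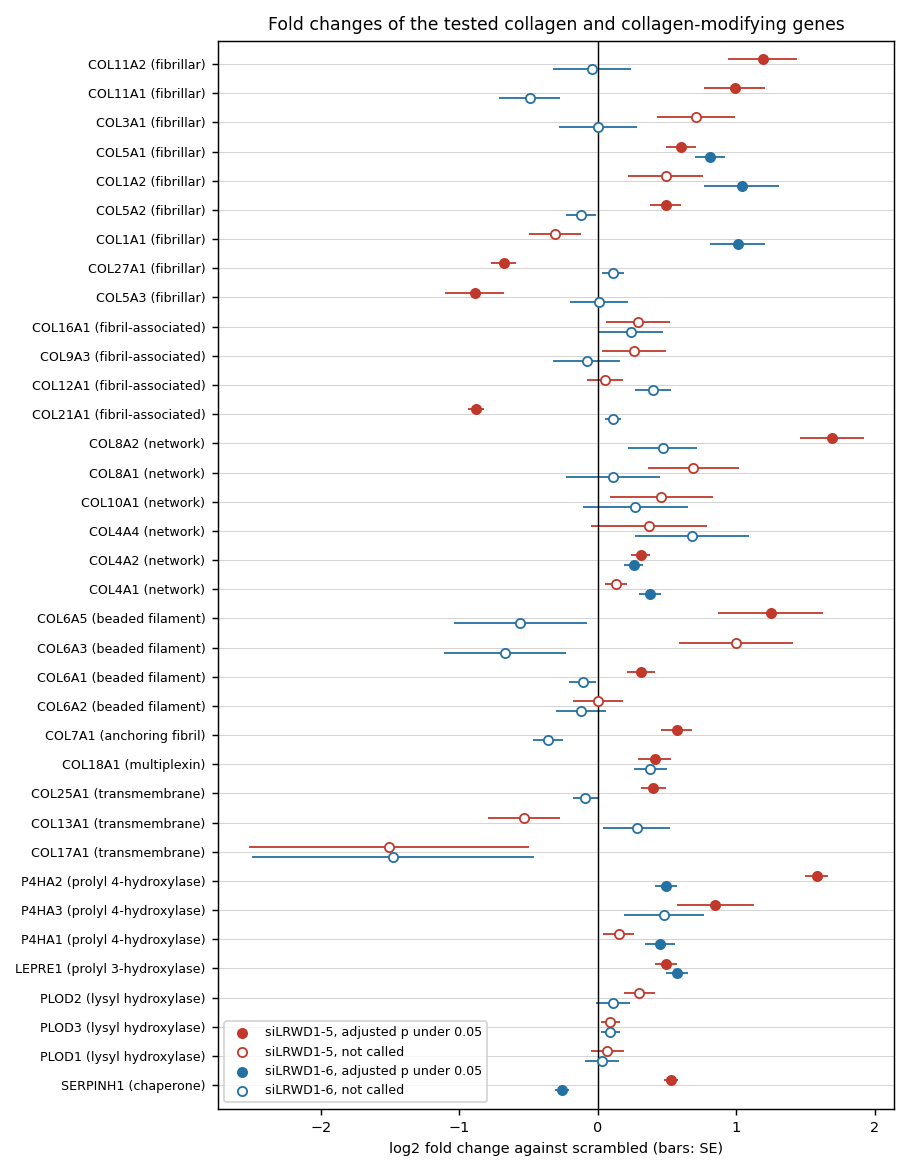
Log2 fold change (x axis) of each of the 36 tested members (y axis, with its class) for siLRWD1-5 (red) and siLRWD1-6 (blue) against scrambled siRNA; bars are the SE, filled points have an adjusted p under 0.05. P4HA2 lies at 1.58 with siLRWD1-5 and 0.49 with siLRWD1-6, and SERPINH1 lies at 0.53 and -0.26.

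The promoter windows of 5 members are shown because their calls carry the comparison of the siRNAs: COL5A1, COL4A2, LEPRE1 and P4HA2 were called higher with each siRNA against the same scrambled libraries, and SERPINH1 was called in opposite directions. Each window runs from 250 bases before to 50 bases after the annotated start, as listed by RefSeq on GRCh38.p14, and for COL5A1 and SERPINH1 it is the first of 2 listed starts. Capitals mark CCAAT, the CCAAT box, and ACGTG, a form of the core of the hypoxia response element. Both are marked on either strand (ATTGG and CACGT on the other strand). The form GCGTG was not searched for.
COL5A1 (chr9:134641553-134641852, plus strand): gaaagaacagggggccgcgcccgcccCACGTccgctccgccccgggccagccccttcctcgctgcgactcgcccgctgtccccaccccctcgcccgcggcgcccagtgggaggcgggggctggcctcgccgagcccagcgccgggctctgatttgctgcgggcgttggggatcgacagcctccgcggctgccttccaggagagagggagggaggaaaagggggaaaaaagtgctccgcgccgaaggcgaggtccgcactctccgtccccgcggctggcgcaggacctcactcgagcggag
COL4A2 (chr13:110307034-110307333, plus strand): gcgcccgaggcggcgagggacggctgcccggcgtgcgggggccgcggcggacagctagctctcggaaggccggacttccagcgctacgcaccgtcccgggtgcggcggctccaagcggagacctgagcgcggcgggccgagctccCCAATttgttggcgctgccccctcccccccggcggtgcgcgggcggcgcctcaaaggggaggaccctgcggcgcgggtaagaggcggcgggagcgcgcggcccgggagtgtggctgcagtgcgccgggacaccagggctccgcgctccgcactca
LEPRE1 (chr1:42766979-42767278, minus strand): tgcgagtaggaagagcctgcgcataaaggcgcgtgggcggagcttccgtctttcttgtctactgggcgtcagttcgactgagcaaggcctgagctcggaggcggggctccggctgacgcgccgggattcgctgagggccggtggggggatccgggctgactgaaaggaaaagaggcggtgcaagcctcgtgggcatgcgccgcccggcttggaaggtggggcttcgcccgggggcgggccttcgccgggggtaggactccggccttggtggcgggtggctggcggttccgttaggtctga
P4HA2 (chr5:132227042-132227341, minus strand): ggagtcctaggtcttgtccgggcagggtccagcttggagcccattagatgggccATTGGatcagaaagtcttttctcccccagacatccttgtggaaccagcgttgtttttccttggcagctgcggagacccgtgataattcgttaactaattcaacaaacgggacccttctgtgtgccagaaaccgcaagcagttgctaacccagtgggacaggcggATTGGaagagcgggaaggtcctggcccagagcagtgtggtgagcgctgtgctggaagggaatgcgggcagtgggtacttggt
SERPINH1 (chr11:75562003-75562302, plus strand): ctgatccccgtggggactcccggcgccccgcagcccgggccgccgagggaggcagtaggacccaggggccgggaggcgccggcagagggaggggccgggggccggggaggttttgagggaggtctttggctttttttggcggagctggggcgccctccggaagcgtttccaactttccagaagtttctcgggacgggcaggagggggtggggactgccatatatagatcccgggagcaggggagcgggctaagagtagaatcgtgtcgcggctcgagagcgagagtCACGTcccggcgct

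COL5A1 and SERPINH1 each held 1 ACGTG, COL4A2 held 1 CCAAT and P4HA2 held 2, while neither word occurred in the LEPRE1 window. The COL4A2 window overlaps by 226 bases the window of COL4A1, its head-to-head neighbour on chromosome 13, so they share that CCAAT. Of the 36 tested members, 27 had a window in the table. CCAAT occurred in 8 of these 27 (29.6%), against 35.7% of 27305 promoter windows, and ACGTG in 5 (18.5%), against 21.6%. The word TGATGNAA, found in the C/EBP-ATF response element, occurred in 3.67% of all windows and in none of the 27. These are letter matches in a fixed window and say nothing of binding.

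Among the fibrillar collagens, 9 genes were tested. With siLRWD1-5, COL5A1, COL5A2, COL11A1 and COL11A2 were called higher and COL5A3 and COL27A1 lower, whereas with siLRWD1-6 the genes called higher were COL1A1, COL1A2 and COL5A1. Type I collagen, the main fibre of bone, skin and tendon, is built from the COL1A1 and COL1A2 chains. COL1A1 had 769.9, 705 and 1043 CPM in siLRWD1-5 libraries, 2232, 1595 and 2443 CPM in siLRWD1-6 libraries and 1118, 873 and 1129.5 CPM in scrambled libraries. Every siLRWD1-6 library was above every other library. The log2 fold change against scrambled was 1.01 with siLRWD1-6 (SE 0.20, adjusted p = 0.0095) and -0.31 with siLRWD1-5 (SE 0.19, adjusted p = 0.24), and siLRWD1-6 was higher than siLRWD1-5 by 1.32 (SE 0.20, adjusted p = 0.00076). When replicate numbers were blocked, the siLRWD1-5 value was -0.32 and passed (adjusted p = 0.0077).

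COL1A2 had 325, 302 and 361 CPM in siLRWD1-5 libraries, 555, 412 and 479 CPM in siLRWD1-6 libraries and 318, 137 and 249 CPM in scrambled libraries. All siLRWD1-6 libraries were above all others, and scrambled replicate 2 was the lowest of the 9. The log2 fold change was 1.04 with siLRWD1-6 (SE 0.27, adjusted p = 0.035) and 0.49 with siLRWD1-5 (SE 0.27, adjusted p = 0.19). Without scrambled replicate 2 these values were 0.78 with siLRWD1-6 (adjusted p = 0.016) and 0.21 with siLRWD1-5 (adjusted p = 0.34). The siLRWD1-6 call was lost with no count filter (1.05, adjusted p = 0.083), with only the compared groups fitted (1.05, adjusted p = 0.057), without scrambled replicate 3 (1.08, adjusted p = 0.074) and without siLRWD1-6 replicate 1 (0.92, adjusted p = 0.11), 2 (1.14, adjusted p = 0.055) or 3 (1.06, adjusted p = 0.079). Without scrambled replicate 1 the siLRWD1-5 value was 0.77 and passed (adjusted p = 0.04). The direct difference of 0.55 had an adjusted p of 0.13, and of 0.017 without scrambled replicate 2, which enters that comparison only through the shared estimate of the spread.

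COL3A1 encodes the only chain of type III collagen, the fibre of vessels and soft organs, and per length it had the highest mean level of the set in scrambled libraries. It had 2799, 2456 and 2682 CPM in siLRWD1-5 libraries, 1822, 1421 and 1615 CPM in siLRWD1-6 libraries and 2139.9, 874 and 1829 CPM in scrambled libraries. All siLRWD1-5 libraries were above all others, and scrambled replicate 2 was far below the rest. The log2 fold change with siLRWD1-5 was 0.71 (SE 0.28) and was not called (adjusted p = 0.082), but it was 0.41 and passed without scrambled replicate 2 (adjusted p = 0.0096), 0.97 and passed without scrambled replicate 1 (adjusted p = 0.035), and, when replicate numbers were blocked, 0.79 and passed (adjusted p = 0.027). In DESeq2 the siLRWD1-5 value was 0.72 and passed (adjusted p = 0.044), as did the difference of -0.70 between the siRNAs (adjusted p = 0.046). With siLRWD1-6 the log2 fold change was 0.00 (SE 0.28, adjusted p = 0.99), and -0.28 without scrambled replicate 2 (adjusted p = 0.075). The level with siLRWD1-6 differed from that with siLRWD1-5 by -0.71 (adjusted p = 0.077), and the same difference passed at -0.71 when only these 6 libraries were fitted (adjusted p = 2.7e-05) at -0.70 without scrambled replicate 2 (adjusted p = 0.00015) and at -0.72 with replicate numbers blocked (adjusted p = 0.032).

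Type V collagen starts and thins fibrils of type I, and its chains did not move together. COL5A1 had 816, 858 and 863 CPM in siLRWD1-5 libraries, 1026, 881 and 1012 CPM in siLRWD1-6 libraries and 634, 446 and 589 CPM in scrambled libraries, with no overlap between either siRNA and scrambled. Its rise with siLRWD1-5 was 0.60 in log2 units (SE 0.11, adjusted p = 0.002) and 0.81 with siLRWD1-6 (SE 0.11, adjusted p = 0.0011). Between the siRNAs its difference of 0.20 had an adjusted p of 0.18 (0.0032 without scrambled replicate 2).

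COL5A2 had 1019.7, 921 and 966 CPM in siLRWD1-5 libraries, 663, 604 and 626 CPM in siLRWD1-6 libraries and 781, 548 and 733 CPM in scrambled libraries. Only the siLRWD1-5 libraries lay clear of the scrambled range, with a rise of 0.49 (SE 0.11, adjusted p = 0.0054). With siLRWD1-6 the log2 fold change was -0.12 (adjusted p = 0.5), and -0.25 and called lower without scrambled replicate 2 (adjusted p = 0.003). Between the siRNAs, siLRWD1-6 libraries were 1.54-fold lower in COL5A2 (adjusted p = 0.0012). It lies next to COL3A1 on chromosome 2.

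COL5A3, the least abundant type V chain per length here, went the other way with siLRWD1-5. It had 82.0, 89.2 and 91.6 CPM in siLRWD1-5 libraries, 173, 136 and 183 CPM in siLRWD1-6 libraries and 192, 106 and 189 CPM in scrambled libraries, and scrambled replicate 2 was the nearest to the siLRWD1-5 range. With siLRWD1-5 its log2 level fell by 0.89 (SE 0.21, adjusted p = 0.011). The value with siLRWD1-6 was 0.01 (adjusted p = 0.98), and siLRWD1-6 was above siLRWD1-5 by 0.90 (adjusted p = 0.0088). Without scrambled replicate 2 the log2 fold changes were -1.12 with siLRWD1-5 (adjusted p = 1.6e-06) and -0.21 with siLRWD1-6 (adjusted p = 0.14).

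Type XI collagen is the cartilage counterpart of type V. COL11A1 had 134, 167 and 119.9 CPM in siLRWD1-5 libraries, 53.4, 41.2 and 56.6 CPM in siLRWD1-6 libraries and 61.0, 95.7 and 55.9 CPM in scrambled libraries. The siLRWD1-5 libraries were above all others, although scrambled replicate 2 came closest. COL11A1 was 1.98-fold higher with siLRWD1-5 than with scrambled siRNA (log2 fold change 0.99, SE 0.22, adjusted p = 0.0068). Without scrambled replicate 2 this log2 fold change was 1.26 (adjusted p = 0.0013). With siLRWD1-6 its log2 fold change was -0.49 (adjusted p = 0.18) and -0.21 without scrambled replicate 2 (adjusted p = 0.48), and the direct difference was -1.48 (SE 0.22, adjusted p = 0.00074). COL11A2, at 6.19 ± 1.02 CPM with siLRWD1-5, 2.61 ± 0.808 CPM with siLRWD1-6 and 2.71 ± 0.699 CPM with scrambled siRNA (SD, n = 3 each), rose by 1.19 with siLRWD1-5 (adjusted p = 0.0032), its value with siLRWD1-6 was -0.04 (adjusted p = 0.95), and the direct difference was -1.22 (adjusted p = 0.0024).

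COL27A1, a fibrillar collagen of growing cartilage, had 35.7, 41.9 and 39.5 CPM in siLRWD1-5 libraries, 70.7, 63.9 and 67.7 CPM in siLRWD1-6 libraries and 65.3, 56.6 and 66.0 CPM in scrambled libraries. All siLRWD1-5 libraries were below all others. With siLRWD1-5 its log2 level fell by 0.68 (SE 0.09, adjusted p = 9.6e-05), and its log2 fold change with siLRWD1-6 was 0.11 (adjusted p = 0.44). Between the siRNAs the difference was 0.79 and called (adjusted p = 2.6e-05).

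**Figure D2:**
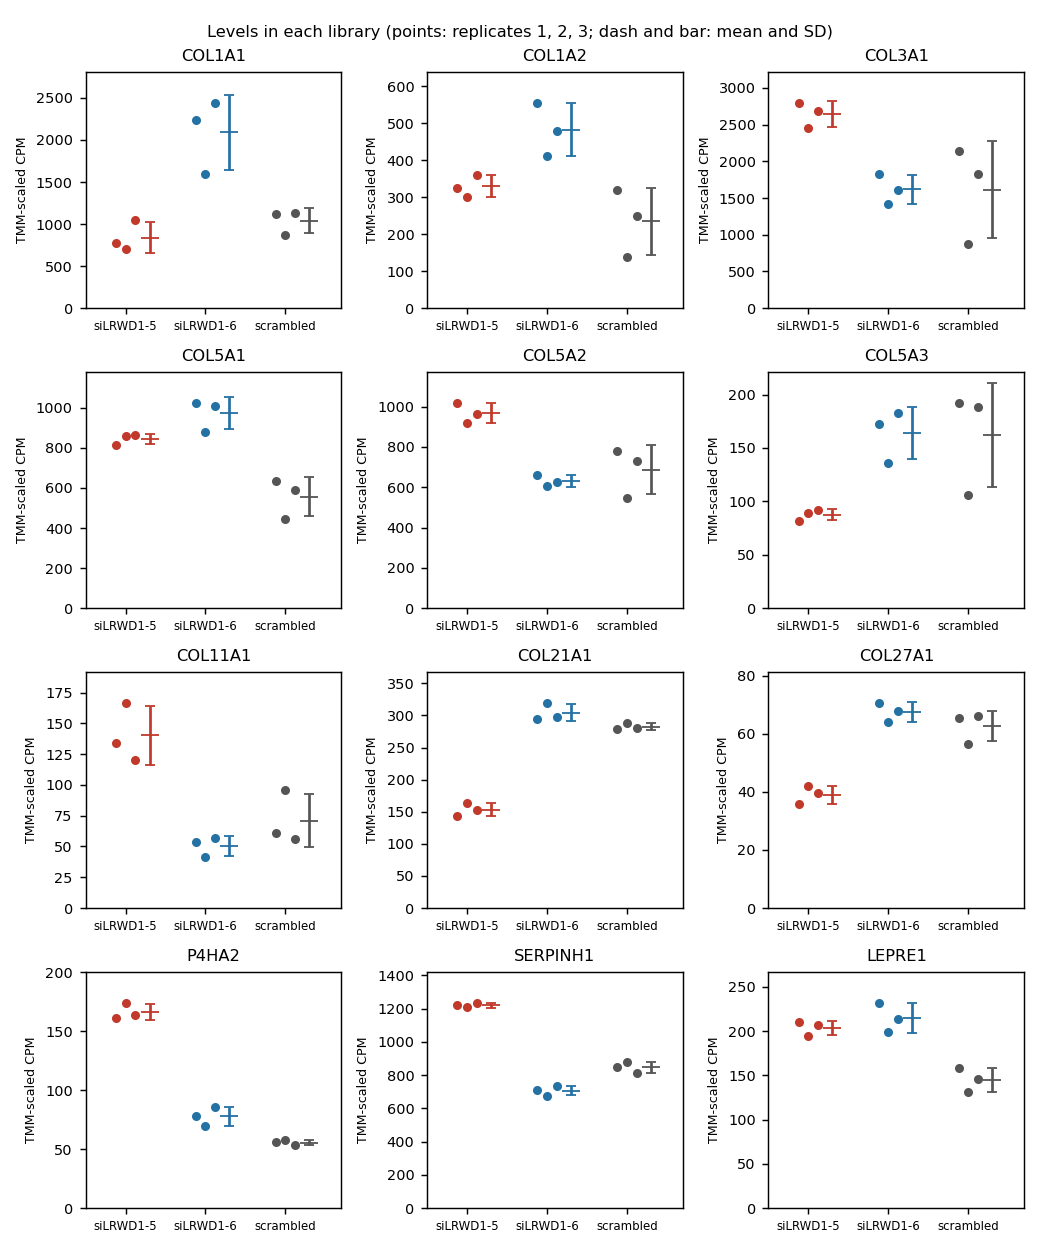
TMM-scaled CPM (y axis, from 0) of 12 members in each library, grouped by siRNA (x axis: siLRWD1-5, siLRWD1-6, scrambled); points are replicates 1, 2 and 3 from left to right, and the dash and bar are the mean and SD. COL1A1 is highest with siLRWD1-6 (1595 to 2443 CPM), COL21A1 and COL27A1 are lowest with siLRWD1-5, and scrambled replicate 2 is the low scrambled point for COL1A2, COL3A1 and COL5A3.

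Ratios between chains within a library do not depend on library scaling, and they are given per base of the longest coding transcript. COL1A1 over COL3A1 was 0.227, 0.237 and 0.32 in siLRWD1-5 libraries, 1.01, 0.925 and 1.25 in siLRWD1-6 libraries and 0.431, 0.822 and 0.509 in scrambled libraries. The groups did not overlap in any pairing, so siLRWD1-5 libraries were poor and siLRWD1-6 libraries rich in COL1A1 for their COL3A1. The log2 difference was -1.13 for siLRWD1-5 against scrambled, 0.90 for siLRWD1-6 against scrambled and 2.03 for siLRWD1-6 against siLRWD1-5. Each had an exact two-sided permutation p of 0.1, the smallest that 3 libraries against 3 allow, and 0.142 after adjustment over the 27 ratio comparisons made (9 ratios in 3 comparisons).

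COL3A1 over COL1A2 was 8.41, 7.95 and 7.26 in siLRWD1-5 libraries, 3.2, 3.36 and 3.29 in siLRWD1-6 libraries and 6.57, 6.23 and 7.18 in scrambled libraries. The siLRWD1-6 libraries were far below all others (-1.02 on the log2 scale against scrambled, exact permutation p = 0.1). Scrambled replicate 2, low in both genes, stood close to its group in this ratio. COL5A1 over COL5A2 was 0.669, 0.778 and 0.747 in siLRWD1-5 libraries, 1.29, 1.22 and 1.35 in siLRWD1-6 libraries and 0.678, 0.68 and 0.672 in scrambled libraries. Here the scrambled libraries were within 0.01 of one another, and siLRWD1-6 was 1.9-fold above them with no overlap (exact permutation p = 0.1), whereas siLRWD1-5 overlapped them (exact permutation p = 0.4).

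COL1A1 over COL1A2 was 1.91, 1.88 and 2.33 in siLRWD1-5 libraries, 3.23, 3.11 and 4.1 in siLRWD1-6 libraries and 2.83, 5.12 and 3.65 in scrambled libraries. The siLRWD1-5 libraries were below all others, and siLRWD1-6 overlapped scrambled (exact permutation p = 0.7). COL4A1 over COL4A2 was 0.601, 0.604 and 0.566 in siLRWD1-5 libraries, 0.735, 0.683 and 0.748 in siLRWD1-6 libraries and 0.665, 0.663 and 0.669 in scrambled libraries. These groups did not overlap, but siLRWD1-6 replicate 2 lay close to the scrambled values. COL5A2 over COL3A1 overlapped in every pairing of groups (exact permutation p = 0.2 for siLRWD1-5 and 0.6 for siLRWD1-6 against scrambled, and 0.3 between the siRNAs). For COL8A2 over COL8A1 the siLRWD1-5 libraries were above all others, and siLRWD1-6 overlapped scrambled (exact permutation p = 0.4). Of the 27 ratio comparisons, 19 had no overlap.

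**Figure D3:**
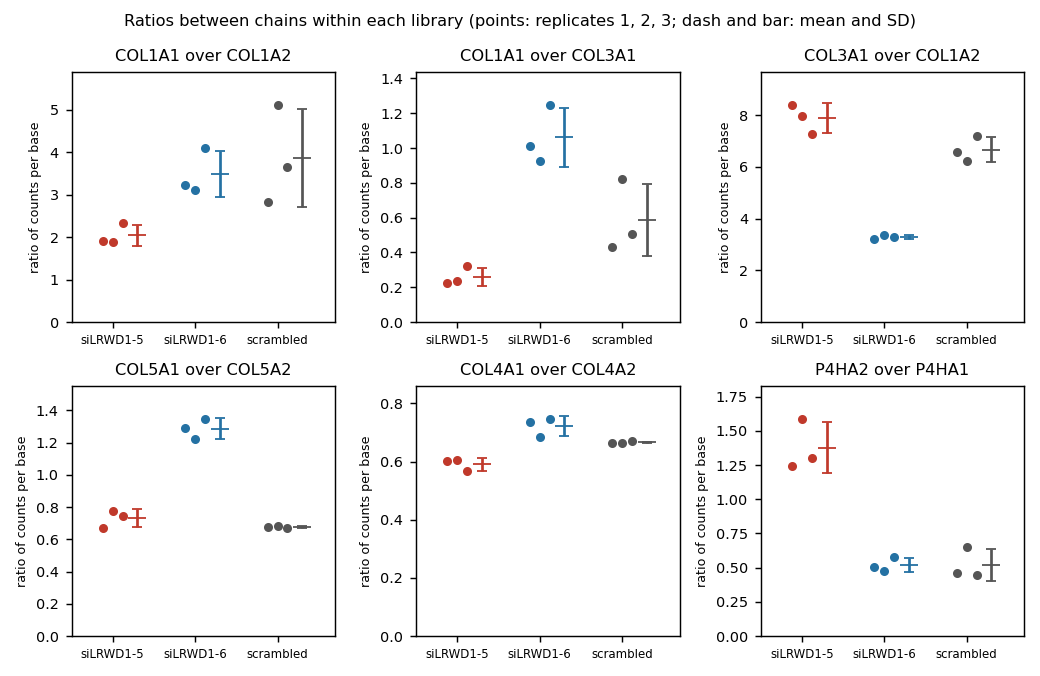
Ratio of counts per base (y axis, from 0) between pairs of chains or subunits in each library, grouped by siRNA (x axis: siLRWD1-5, siLRWD1-6, scrambled); points are replicates 1, 2 and 3, and the dash and bar are the mean and SD. COL5A1 over COL5A2 is 1.22 to 1.35 with siLRWD1-6 and 0.672 to 0.680 with scrambled siRNA, and P4HA2 over P4HA1 is 1.24 to 1.59 with siLRWD1-5 and 0.444 to 0.654 with scrambled siRNA.

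The fibril-associated collagens decorate fibrils and link them to other matrix. COL21A1, whose log2 fold changes had the smallest SE of any collagen, had 143, 164 and 153 CPM in siLRWD1-5 libraries, 295, 319.9 and 298 CPM in siLRWD1-6 libraries and 279, 289 and 280.0 CPM in scrambled libraries. The siLRWD1-5 libraries were below all others by a wide margin, and the siLRWD1-6 libraries lay just above the scrambled ones. With siLRWD1-5 its log2 level fell by 0.88 (SE 0.06, adjusted p = 1.8e-06), its value with siLRWD1-6 was 0.11 (SE 0.06, adjusted p = 0.28), and the direct difference was 0.99 (adjusted p = 5.9e-07).

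COL12A1, which coats type I fibrils in tendon and ligament, had 310.2, 289 and 284 CPM in siLRWD1-5 libraries, 369, 347 and 412 CPM in siLRWD1-6 libraries and 302, 219.9 and 333 CPM in scrambled libraries. The siLRWD1-6 libraries were above all others, but its log2 fold change of 0.40 was not called (adjusted p = 0.068). It passed without scrambled replicate 2 (0.25, adjusted p = 0.0086), without scrambled replicate 3 (0.53, adjusted p = 0.025) and with replicate numbers blocked (0.41, adjusted p = 0.02). In DESeq2 it passed as well (0.41, adjusted p = 0.018), and so did the difference between the siRNAs (0.36, adjusted p = 0.025). The direct difference of 0.35 had an adjusted p of 0.054, and of 0.00013 with only those 6 libraries fitted, 4.1e-05 without scrambled replicate 2, 0.029 without scrambled replicate 3 and 0.02 with replicate numbers blocked. COL16A1 averaged 439 ± 15.7 CPM with siLRWD1-5, 425 ± 47.0 CPM with siLRWD1-6 and 359 ± 124 CPM with scrambled siRNA (SD, n = 3 each), where scrambled replicate 2 alone had 219 CPM, and was called in no comparison. Its log2 fold changes of 0.29 with siLRWD1-5 and 0.24 with siLRWD1-6 became 0.03 and 0.00 without that library. The cartilage chain COL9A3, at 8.29 ± 2.01, 6.54 ± 0.775 and 6.83 ± 2.07 CPM in that order of groups, was not called either.

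In the network-forming class, COL4A1 and COL4A2 are the common basement membrane chains and share a promoter region. COL4A2 had 661, 711 and 709 CPM in siLRWD1-5 libraries, 694, 629.8 and 691 CPM in siLRWD1-6 libraries and 599.9, 520.4 and 562 CPM in scrambled libraries, and neither siRNA overlapped scrambled. It rose by 0.31 with siLRWD1-5 (SE 0.07, adjusted p = 0.004) and by 0.26 with siLRWD1-6 (SE 0.07, adjusted p = 0.022). The siLRWD1-6 call was lost without scrambled replicate 3 (0.26, adjusted p = 0.052), siLRWD1-6 replicate 1 (0.24, adjusted p = 0.1) or siLRWD1-6 replicate 3 (0.25, adjusted p = 0.073).

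COL4A1 had 404, 438 and 409 CPM in siLRWD1-5 libraries, 519, 439 and 527 CPM in siLRWD1-6 libraries and 406, 351 and 383 CPM in scrambled libraries. Only the siLRWD1-6 libraries were clear of scrambled, with a rise of 0.38 (SE 0.08, adjusted p = 0.0081), against 0.13 with siLRWD1-5 (adjusted p = 0.21). The direct difference of 0.25 (adjusted p = 0.027) was 0.21 to 0.23 and no longer called without siLRWD1-5 replicate 1 or 3 or siLRWD1-6 replicate 1 or 3, and 0.18 with library size as the only scaling (adjusted p = 0.11).

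COL8A2 and COL8A1 encode short chains found beneath vessel and corneal endothelium. COL8A2 had 4.66, 5.26 and 5.52 CPM in siLRWD1-5 libraries, 2.30, 1.83 and 2.46 CPM in siLRWD1-6 libraries and 1.64, 2.03 and 1.08 CPM in scrambled libraries. It was 3.23-fold higher with siLRWD1-5 than with scrambled siRNA (log2 fold change 1.69, SE 0.23, adjusted p = 0.00015), from few counts, while siLRWD1-6 overlapped scrambled (0.47, adjusted p = 0.23). COL8A1 had 28.3, 29.6 and 30.8 CPM in siLRWD1-5 libraries, 16.9, 16.9 and 25.9 CPM in siLRWD1-6 libraries and 12.2, 30.3 and 13.0 CPM in scrambled libraries. Scrambled replicate 2 sat among the siLRWD1-5 values, and the log2 fold changes of 0.69 and 0.11 were not called (adjusted p = 0.14 and 0.87). Without that library they were 1.23 (adjusted p = 1.3e-05) with siLRWD1-5 and 0.66 (adjusted p = 0.0074) with siLRWD1-6, and the direct difference of -0.57 also passed (adjusted p = 0.0019). Among the remaining tested network chains, COL10A1 averaged 0.788 ± 0.248 CPM with siLRWD1-5, 0.673 ± 0.0719 CPM with siLRWD1-6 and 0.561 ± 0.189 CPM with scrambled siRNA, and COL4A4 averaged 1.14 ± 0.623, 1.43 ± 0.513 and 0.896 ± 0.0496 CPM in the same order. Neither was called.

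Type VI collagen assembles from a chain each of COL6A1, COL6A2 and a longer partner such as COL6A3. COL6A1 had 651, 734 and 785 CPM in siLRWD1-5 libraries, 555, 487 and 585 CPM in siLRWD1-6 libraries and 598, 638 and 519.9 CPM in scrambled libraries. The siLRWD1-5 values began just above the highest scrambled value, with a log2 fold change of 0.31 (SE 0.10, adjusted p = 0.027). That call was lost without scrambled replicate 1 (0.32, adjusted p = 0.051), scrambled replicate 3 (0.22, adjusted p = 0.099), siLRWD1-5 replicate 2 (0.30, adjusted p = 0.07) or siLRWD1-5 replicate 3 (0.24, adjusted p = 0.11). Between the siRNAs, siLRWD1-6 libraries were 1.33-fold lower in COL6A1 (adjusted p = 0.0048), and its log2 fold change with siLRWD1-6 against scrambled was -0.11 (adjusted p = 0.49). Its neighbour COL6A2 had log2 fold changes of 0.00 with siLRWD1-5 (SE 0.18, adjusted p = 0.99) and -0.12 with siLRWD1-6 (SE 0.18, adjusted p = 0.7), and scrambled replicate 2 held its highest value of 984 CPM. Without that library its values were 0.24 and 0.13, and neither was called. COL6A1 over COL6A2 per base was 0.29 higher on the log2 scale with siLRWD1-5 than with scrambled siRNA, with no overlap (exact permutation p = 0.1), against -0.02 with siLRWD1-6 (exact permutation p = 1.0).

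COL6A3 was scarce beside its partners, with 20.1, 46.9 and 20.8 CPM in siLRWD1-5 libraries, 9.76, 9.28 and 8.47 CPM in siLRWD1-6 libraries and 11.8, 22.8 and 9.49 CPM in scrambled libraries. Replicate 2 of siLRWD1-5 and replicate 2 of scrambled were each far above their group mates. The siLRWD1-5 value of 1.00 was not called (SE 0.41, adjusted p = 0.086) but passed when replicate numbers were blocked (0.98, adjusted p = 0.0088). Leaving out single libraries moved it between 0.49 (without siLRWD1-5 replicate 2, adjusted p = 0.27) and 1.45 (without scrambled replicate 2, adjusted p = 0.05). With siLRWD1-6 it was -0.67 (adjusted p = 0.36) and -0.21 without scrambled replicate 2 (adjusted p = 0.82), and the direct difference was -1.67 (SE 0.43, adjusted p = 0.014). COL6A5 had 1.32, 2.07 and 1.14 CPM in siLRWD1-5 libraries, 0.279, 0.731 and 0.254 CPM in siLRWD1-6 libraries and 0.695, 0.567 and 0.617 CPM in scrambled libraries, which is a handful of reads. Its siLRWD1-5 value of 1.25 (adjusted p = 0.022) lost its call without scrambled replicate 3 (1.23, adjusted p = 0.06), without siLRWD1-5 replicate 2 (0.97, adjusted p = 0.096) and in DESeq2 (1.27, adjusted p = 0.053).

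COL7A1 forms the anchoring fibrils that tie epidermis to dermis. It had 144, 202 and 180.1 CPM in siLRWD1-5 libraries, 91.7, 94.7 and 89.2 CPM in siLRWD1-6 libraries and 129, 109 and 116 CPM in scrambled libraries, so all siLRWD1-5 libraries were above and all siLRWD1-6 libraries below the scrambled range. The rise of 0.57 with siLRWD1-5 was called (SE 0.11, adjusted p = 0.002). The siLRWD1-6 value of -0.36 narrowly missed (SE 0.11, adjusted p = 0.052). It passed without scrambled replicate 2 (-0.40, adjusted p = 0.044) and without siLRWD1-5 replicate 1 (-0.36, adjusted p = 0.015) or 2 (-0.35, adjusted p = 0.035). It also passed in DESeq2 (-0.35, adjusted p = 0.034), with only the compared groups fitted (-0.35, adjusted p = 0.024) and with library size as the only scaling (-0.38, adjusted p = 0.049). Between the siRNAs, COL7A1 was 1.91-fold lower with siLRWD1-6 (adjusted p = 7.2e-05).

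COL18A1, the basement membrane collagen whose end fragment is endostatin, had 99.2, 105 and 128 CPM in siLRWD1-5 libraries, 109, 94.4 and 123 CPM in siLRWD1-6 libraries and 87.6, 74.7 and 87.8 CPM in scrambled libraries. Neither siRNA overlapped scrambled. Its log2 fold change was 0.41 with siLRWD1-5 (adjusted p = 0.019) and 0.38 with siLRWD1-6 (adjusted p = 0.051). The siLRWD1-5 call was lost without scrambled replicate 2 (0.33, adjusted p = 0.053) or siLRWD1-5 replicate 3 (0.29, adjusted p = 0.077), and the siLRWD1-6 value passed without siLRWD1-5 replicate 3 (0.38, adjusted p = 0.034) or siLRWD1-6 replicate 2 (0.47, adjusted p = 0.034) and with replicate numbers blocked (0.38, adjusted p = 0.0052). The siLRWD1-6 value also passed in DESeq2 (0.39, adjusted p = 0.018), with the size factors of that tool (0.39, adjusted p = 0.047) and with no count filter (0.39, adjusted p = 0.049). In GENCODE 29, 16.4% of the exonic bases of COL18A1 lie opposite those of SLC19A1, and libraries without strand cannot tell their reads apart.

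Among the transmembrane collagens, COL25A1, a neuronal membrane collagen, had 32.6, 31.7 and 37.0 CPM in siLRWD1-5 libraries, 23.1, 25.4 and 23.5 CPM in siLRWD1-6 libraries and 26.9, 24.2 and 25.3 CPM in scrambled libraries. It rose by 0.40 with siLRWD1-5 (SE 0.09, adjusted p = 0.0038), its value with siLRWD1-6 was -0.09 (adjusted p = 0.56), and the direct difference was -0.49 (adjusted p = 0.00096). COL13A1, a collagen of the neuromuscular junction, had 1.44 ± 0.343 CPM with siLRWD1-5, 2.56 ± 0.543 CPM with siLRWD1-6 and 2.11 ± 0.192 CPM with scrambled siRNA (SD, n = 3 each). It was called only between the siRNAs (0.81, adjusted p = 0.023), and not without siLRWD1-5 replicate 2 or 3 or siLRWD1-6 replicate 1 or 3 (0.68 to 0.78, adjusted p = 0.065 to 0.08). In DESeq2 that difference was not called either (0.82, adjusted p = 0.051). COL17A1, the hemidesmosome collagen, had 7.86 CPM in scrambled replicate 2 and at most 1.85 CPM in any other library. Its log2 fold changes of -1.51 and -1.48 became 0.57 and 0.61 without that library, and none of these values was called.

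Of the prolyl 4-hydroxylase subunits, P4HA2 was called with each siRNA, P4HA3 with siLRWD1-5 and P4HA1 with siLRWD1-6. P4HA2, the catalytic subunit known for cartilage and fibrotic matrix, had 161, 174 and 163 CPM in siLRWD1-5 libraries, 78.4, 69.4 and 85.8 CPM in siLRWD1-6 libraries and 55.7, 57.6 and 53.2 CPM in scrambled libraries. The groups formed separate steps, with siLRWD1-5 on top and scrambled at the bottom. P4HA2 was 3.0-fold higher with siLRWD1-5 than with scrambled siRNA (log2 fold change 1.58, SE 0.08, adjusted p = 1.3e-07) and 1.4-fold higher with siLRWD1-6 (0.49, SE 0.08, adjusted p = 0.0019). The direct difference was -1.10 (SE 0.08, adjusted p = 1.3e-06). Leaving out any single library kept the siLRWD1-5 value between 1.55 and 1.61 and the siLRWD1-6 value between 0.43 and 0.57. An antisense gene overlaps 6.45% of its exonic bases in GENCODE 29.

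P4HA1, the subunit of most tissues, had 110.1, 93.1 and 107 CPM in siLRWD1-5 libraries, 132, 123 and 126 CPM in siLRWD1-6 libraries and 102, 74.8 and 102 CPM in scrambled libraries. Here the siLRWD1-6 libraries were on top, and siLRWD1-5 overlapped scrambled. P4HA1 rose by 0.45 with siLRWD1-6 (SE 0.11, adjusted p = 0.019), against 0.15 with siLRWD1-5 (adjusted p = 0.31). The siLRWD1-6 call was lost without siLRWD1-6 replicate 1 (0.42, adjusted p = 0.076), 2 (0.47, adjusted p = 0.05) or 3 (0.48, adjusted p = 0.054). The direct difference of 0.30 (adjusted p = 0.048) was lost when any single one of the 6 libraries involved was left out, at 0.24 to 0.35. With library size as the only scaling it was 0.23 and not called (adjusted p = 0.16).

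The balance of these subunits was set beside scrambled within each library. P4HA2 over P4HA1, per base, was 1.24, 1.59 and 1.3 in siLRWD1-5 libraries, 0.504, 0.478 and 0.579 in siLRWD1-6 libraries and 0.463, 0.654 and 0.444 in scrambled libraries. P4HA2 was the more abundant subunit in every siLRWD1-5 library and the less abundant in every other. The log2 difference was 1.42 for siLRWD1-5 against scrambled (exact permutation p = 0.1) and 0.02 for siLRWD1-6 against scrambled (exact permutation p = 0.9), and -1.40 for siLRWD1-6 against siLRWD1-5 (exact permutation p = 0.1). P4HA3, a minor subunit, had 2.52, 2.81 and 2.60 CPM in siLRWD1-5 libraries, 1.88, 1.97 and 2.29 CPM in siLRWD1-6 libraries and 1.45, 2.11 and 0.849 CPM in scrambled libraries. Its siLRWD1-5 value of 0.85 was called (adjusted p = 0.031) but not without scrambled replicate 1 (0.84, adjusted p = 0.07) or 3 (0.58, adjusted p = 0.095), nor when any single siLRWD1-5 library was left out (0.81 to 0.88, adjusted p = 0.064 to 0.081). With only the compared groups fitted it was not called either (0.85, adjusted p = 0.06).

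LEPRE1, the prolyl 3-hydroxylase that works with CRTAP and cyclophilin B, had 209.9, 195 and 207 CPM in siLRWD1-5 libraries, 232, 199 and 213 CPM in siLRWD1-6 libraries and 158, 132 and 146 CPM in scrambled libraries. Every siRNA library was above every scrambled library, and the siRNA groups overlapped each other. It rose by 0.49 with siLRWD1-5 (SE 0.08, adjusted p = 0.0006) and by 0.57 with siLRWD1-6 (SE 0.08, adjusted p = 0.00075), and the direct difference was 0.08 (SE 0.08, adjusted p = 0.46).

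The lysyl hydroxylases stayed near their scrambled levels. PLOD1, which acts on helical lysines, averaged 302 ± 26.2 CPM with siLRWD1-5, 292 ± 34.4 CPM with siLRWD1-6 and 286 ± 42.3 CPM with scrambled siRNA (SD, n = 3 each), and PLOD3, which also adds sugars, averaged 189 ± 6.28, 189 ± 15.4 and 178 ± 9.61 CPM in that order of groups. Their log2 fold changes ran from 0.03 to 0.09 with SE of 0.07 to 0.12, and none was called. PLOD2, the telopeptide lysyl hydroxylase tied to fibrosis, averaged 56.1 ± 8.08 CPM with siLRWD1-5, 49.2 ± 3.93 CPM with siLRWD1-6 and 45.6 ± 4.77 CPM with scrambled siRNA. Its siLRWD1-5 value of 0.30 (SE 0.11) missed the threshold (adjusted p = 0.061) but passed when replicate numbers were blocked (0.29, adjusted p = 0.0047) and without siLRWD1-5 replicate 2 (0.42, adjusted p = 0.011). The direct difference of -0.19 was also called without that library (-0.30, adjusted p = 0.042) and with replicate numbers blocked (-0.18, adjusted p = 0.042). With library size as the only scaling, the siLRWD1-5 value was 0.35 and passed (adjusted p = 0.047).

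SERPINH1, a chaperone specialised for procollagen, moved in opposite directions. It had 1220.0, 1207 and 1235 CPM in siLRWD1-5 libraries, 708, 677 and 734 CPM in siLRWD1-6 libraries and 846, 879 and 813 CPM in scrambled libraries, with no overlap between any groups. It rose by 0.53 with siLRWD1-5 (SE 0.05, adjusted p = 2.3e-05) and fell by 0.26 with siLRWD1-6 (SE 0.05, adjusted p = 0.0077). The difference between the siRNAs was itself called, at -0.79 (SE 0.05, adjusted p = 1e-06). In siLRWD1-6 libraries the chaperone was therefore lower than with scrambled siRNA while the type I chains were higher.

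Per kb of transcript, 8 collagens made up most of the collagen message. COL3A1 held 30.8, 26.9 and 27.3% of the summed collagen CPM per kb in siLRWD1-5 libraries, 18.7, 17.5 and 16.6% in siLRWD1-6 libraries and 25.1, 13.0 and 23.5% in scrambled libraries. COL1A1 held 6.99, 6.36 and 8.73% in siLRWD1-5 libraries, 18.9, 16.2 and 20.7% in siLRWD1-6 libraries and 10.8, 10.7 and 11.9% in scrambled libraries. The siLRWD1-5 libraries leaned to type III and the siLRWD1-6 libraries to type I, whereas scrambled replicate 2 leaned to COL6A2 (23.5%, against 12.4 and 12.5% in its group mates).

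All 37 collagen members together took 0.989, 0.973 and 1.05% of all counts in siLRWD1-5 libraries, 1.03, 0.848 and 1.02% in siLRWD1-6 libraries and 0.899, 0.639 and 0.821% in scrambled libraries. The siLRWD1-5 libraries lay above all scrambled libraries, and siLRWD1-6 replicate 2 lay within the scrambled range. In scrambled libraries, levels per kb began with COL3A1 at 291 ± 119 CPM per kb, SERPINH1 at 249 ± 9.71, COL6A2 at 217 ± 59.2, COL1A1 at 155 ± 21.6, COL6A1 at 138 ± 14.2 and PLOD1 at 97.3 ± 14.4 (SD, n = 3). Within the scrambled libraries, COL3A1, SERPINH1 and COL6A2 overlapped as neighbours in that order, and COL1A1 and COL6A1 overlapped. Every scrambled value of COL6A2 was above those of COL1A1, and every scrambled value of COL6A1 was above those of PLOD1. With siLRWD1-6 the first of these orders was reversed, with means of 311 CPM per kb for COL1A1 and 199 for COL6A2.

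**Figure D4:**
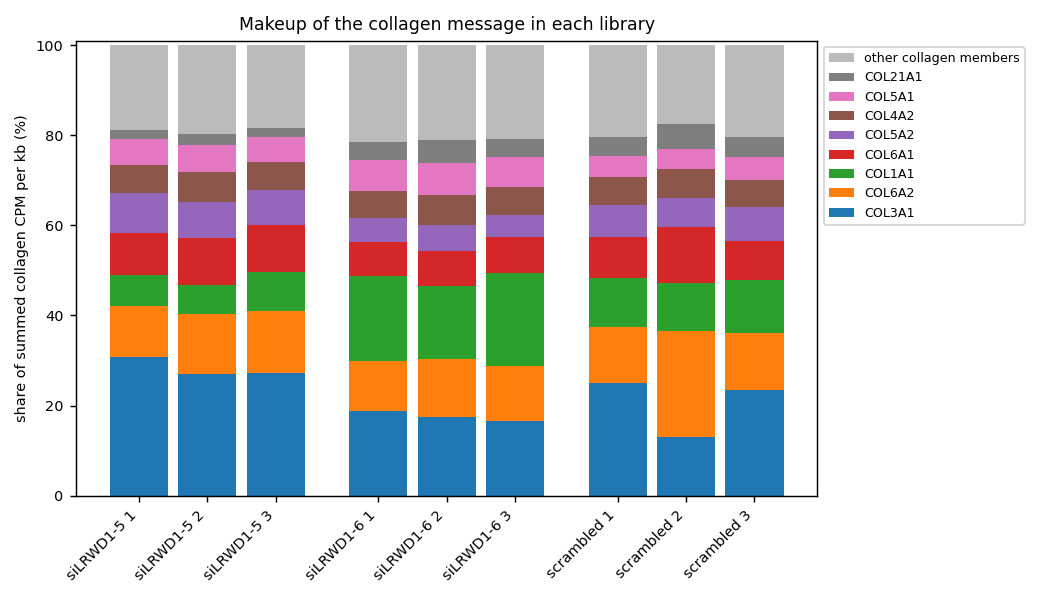
Share of the summed collagen CPM per kb (y axis, %) held by the 8 collagens most abundant in scrambled libraries and by the other collagen members in each library (x axis, siLRWD1-5, siLRWD1-6, then scrambled). COL3A1 (blue) fills 26.9 to 30.8% with siLRWD1-5 and 16.6 to 18.7% with siLRWD1-6, and COL1A1 (green) fills 6.36 to 8.73% and 16.2 to 20.7%, against 10.7 to 11.9% with scrambled siRNA.

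The 9 members that were too low to test were COL2A1, COL4A3, COL9A2, COL15A1, COL19A1, COL20A1, COL23A1, COL24A1 and COL28A1, with summed counts of 24 to 71 over the 9 libraries. They include the main cartilage collagen, COL2A1, with 33 counts. Of the 36 tested members, 32 were above the filter level of 0.755 CPM in all 9 libraries, and COL10A1, COL17A1, COL4A4 and COL6A5 were above it in some.

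The machinery around collagen was read from 8 gene lists. Several of their genes, such as HSPA5, XBP1, SHMT2 and PSPH, are not particular to collagen, so the share of a list is no measure of collagen alone. The lists stand beside these values over all tested genes. With siLRWD1-5 against scrambled, 18.5% of all genes were called higher and 20.3% lower, with siLRWD1-6 against scrambled 8.81% and 7.78%, and in siLRWD1-6 against siLRWD1-5 22.4% and 20.9%, and the median log2 fold changes were -0.01 to -0.02. Of 34 tested genes for collagen folding and secretion, 16 were higher and 3 lower with siLRWD1-5 (47.1 and 8.82%, median log2 fold change 0.17), 20 higher and 1 lower with siLRWD1-6 (58.8 and 2.94%, median 0.33), and 13 higher and 1 lower in siLRWD1-6 against siLRWD1-5 (38.2 and 2.94%, median 0.15). SEC24A, a cargo adaptor of the vesicles that leave the endoplasmic reticulum, was 1.61-fold higher with siLRWD1-5 and 2.23-fold higher with siLRWD1-6 than with scrambled siRNA (adjusted p = 6.4e-05 and 6.2e-06). MIA3 (TANGO1), which loads procollagen into those vesicles, had 160.2 ± 7.94 CPM with siLRWD1-5 and 109 ± 8.31 CPM with scrambled siRNA (SD, n = 3 each, adjusted p = 8e-05). P4HB, the partner subunit of prolyl 4-hydroxylase, had 1504 ± 40.0 CPM with siLRWD1-5 and 1159 ± 36.4 CPM with scrambled siRNA (adjusted p = 0.00022).

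CREB3L1, a membrane-bound transcription factor that drives COL1A1 in mouse bone, was among the 3 of that list that fell with siLRWD1-5. It had 22.7 ± 4.83 CPM with siLRWD1-5 and 45.5 ± 0.0922 CPM with scrambled siRNA, a fall of 2.02-fold (adjusted p = 0.00023). With siLRWD1-6 it had 64.4 ± 6.79 CPM and was 2.86-fold higher than with siLRWD1-5 (adjusted p = 1e-05). HSPA5, the endoplasmic reticulum chaperone BiP, had 3017 ± 235 CPM with siLRWD1-6 and 1641 ± 156 CPM with scrambled siRNA (log2 fold change 0.88, adjusted p = 4.2e-05). XBP1, a transcription factor of the unfolded protein response, and SEC31A, an outer coat protein of the same vesicles, rose with siLRWD1-6 by 0.71 and 0.62 (adjusted p = 6e-05 and 4.9e-05).

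Of 15 tested genes for the supply of proline and glycine, the main residues of collagen, and for dioxygenase cofactors, 3 were higher and 1 lower with siLRWD1-5 (20 and 6.67%, median 0.03), 10 were higher with siLRWD1-6 (66.7%, median 0.47), and 9 were higher and 1 lower in siLRWD1-6 against siLRWD1-5 (60.0 and 6.67%, median 0.67). PYCR1, the last enzyme of proline synthesis, had 216 ± 12.2 CPM with siLRWD1-5 and 211 ± 5.81 CPM with siLRWD1-6, against 120.2 ± 5.37 CPM with scrambled siRNA (adjusted p = 2e-06 and 1.2e-05). ALDH18A1, the first enzyme of that pathway, rose by 0.49 and 0.47 (adjusted p = 3.7e-05 and 0.00017). The serine and glycine enzymes PSPH and SHMT2 rose with siLRWD1-6 by 0.80 and 0.46 (adjusted p = 5.3e-05 and 0.00035), and PSAT1 was 2.42-fold higher with siLRWD1-6 than with siLRWD1-5 (adjusted p = 8.7e-05).

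Of 15 tested genes for procollagen processing and cross-linking, 5 were higher and 1 lower with siLRWD1-5 (33.3 and 6.67%, median 0.27), 2 higher and 1 lower with siLRWD1-6 (13.3 and 6.67%, median 0.06), and 2 higher and 4 lower in siLRWD1-6 against siLRWD1-5 (13.3 and 26.7%, median -0.04). LOXL2, a lysyl oxidase that starts cross-links, had 446 ± 26.2 CPM with siLRWD1-5 and 395 ± 28.9 CPM with siLRWD1-6, against 299 ± 20.8 CPM with scrambled siRNA (adjusted p = 0.00013 and 0.0041). LOX had 752 ± 60.1 CPM with siLRWD1-6 and 462 ± 74.6 CPM with scrambled siRNA (adjusted p = 0.0019). ADAMTS2, which trims the amino-terminal propeptide, was low at 4.40 ± 0.797 CPM with siLRWD1-5 and 1.65 ± 0.50 CPM with scrambled siRNA, a rise of 1.41 (adjusted p = 0.0011).

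Of 16 tested genes for collagen degradation, 3 were higher and 3 lower with siLRWD1-5 (18.8% each, median -0.13), 2 were lower with siLRWD1-6 (12.5%, median -0.09), and 3 were higher and 5 lower in siLRWD1-6 against siLRWD1-5 (18.8 and 31.2%, median -0.03). The siLRWD1-5 shares are close to those of all genes. Several of these are inhibitors of degradation. TIMP2, an inhibitor of metalloproteinases, had 149 ± 9.36 CPM with siLRWD1-6 and 679 ± 59.5 CPM with scrambled siRNA, a 4.57-fold lower level (adjusted p = 1.7e-07). MMP14, the membrane collagenase, rose by 0.46 with siLRWD1-5 and fell by 0.38 with siLRWD1-6 (adjusted p = 0.00023 and 0.0027), and its direct difference was -0.84 (adjusted p = 2.3e-06). MMP2 and TIMP3 fell by 0.71 and 0.90 with siLRWD1-5 (adjusted p = 0.00011 and 0.0021).

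Of 24 tested matrix partners, 11 were higher and 2 lower with siLRWD1-5 (45.8 and 8.33%, median 0.33), 5 were higher with siLRWD1-6 (20.8%, median 0.22), and 6 were higher and 6 lower in siLRWD1-6 against siLRWD1-5 (25.0% each, median -0.05). Fibronectin (FN1) had 19001 ± 790.0 CPM with siLRWD1-5 and 13744 ± 1770.0 CPM with scrambled siRNA (adjusted p = 0.001). The laminin chains LAMB1 and LAMB2 rose by 0.52 and 0.62 with siLRWD1-5 (adjusted p = 5.1e-05 and 3.9e-05), and the collagen-binding glycoprotein SPARC rose by 0.32 with siLRWD1-6 (adjusted p = 0.0043). Of 11 tested collagen receptors, 1 was higher and 3 lower with siLRWD1-5 (9.09 and 27.3%, median 0.17), 1 was higher with siLRWD1-6 (9.09%, median -0.29), and 2 were higher and 4 lower in siLRWD1-6 against siLRWD1-5 (18.2 and 36.4%, median -0.08). DDR2, a receptor tyrosine kinase for fibrillar collagen, fell by 0.30 with siLRWD1-5 (adjusted p = 0.024) and rose by 0.30 with siLRWD1-6 (adjusted p = 0.049). ITGA1, the receptor called higher with siLRWD1-5, rose by 1.03 (adjusted p = 0.0027). Its value in siLRWD1-6 against siLRWD1-5 was -1.32 (adjusted p = 0.00058).

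Of 21 tested genes of collagen transcription and TGF-beta signalling, 6 were higher and 3 lower with siLRWD1-5 (28.6 and 14.3%, median 0.11), 2 higher and 2 lower with siLRWD1-6 (9.52% each, median 0.15), and 4 higher and 5 lower in siLRWD1-6 against siLRWD1-5 (19.0 and 23.8%, median -0.05). The siLRWD1-6 shares and those between the siRNAs are close to those of all genes. The receptor TGFBR1 rose by 0.94 and the cartilage regulator SOX9 by 0.63 with siLRWD1-5 (adjusted p = 1.4e-05 and 0.0001), and the ligand TGFB2 rose by 1.25 with siLRWD1-6 (adjusted p = 0.0008). Among those called lower, FLI1, also among the Ewing sarcoma markers above, had -0.52 with siLRWD1-5 (adjusted p = 0.0005). Counts per gene cannot tell reads of FLI1 itself from those of an EWSR1 fusion that holds FLI1 sequence. With siLRWD1-6, TGFB3 and SMAD3 were the genes called lower, at -1.02 and -0.27 (adjusted p = 0.0044 and 0.045). Of 12 tested hypoxia-responsive partners of the hydroxylases, 2 were higher and 3 lower with siLRWD1-5 (16.7 and 25.0%, median 0.03), 2 higher and 1 lower with siLRWD1-6 (16.7 and 8.33%, median -0.02), and 4 higher and 2 lower in siLRWD1-6 against siLRWD1-5 (33.3 and 16.7%, median 0.07). VEGFA had 42.8 ± 2.24 CPM with siLRWD1-5 and 151 ± 14.2 CPM with siLRWD1-6, against 79.4 ± 4.68 CPM with scrambled siRNA, so it fell with siLRWD1-5 and rose with siLRWD1-6 (adjusted p = 1.1e-05 and 2.5e-05).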

How the data were processed

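RNA-seq counts per gene, deposited by the authors as 1 table of whole numbers, were used for all 9 libraries of A673 cells. The submitters' processing notes name HTSeq 0.5.4p3, TopHat2 2.0.10, bcl2fastq 1.8.4 and the build hg19. Per the labels' protocols the kit was TruSeq RNA v2, which does not mark strand, so reads of overlapping genes on opposite strands cannot be told apart.

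Counts were fitted with edgeR 4.0.16 in R 4.3.3 (TMM scaling, filterByExpr, robust quasi-likelihood test, all 9 libraries, group as the only term), and p-values were adjusted by Benjamini-Hochberg over 13648 genes. The SE was derived from the fold change and its F value. Levels per kb used the longest protein-coding transcript in GENCODE 29. No gene coordinates of the count table are given, because its build differs from that of the promoter table. Ratios between chains were compared on the log2 scale with exact two-sided permutation tests.

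The members and gene lists were chosen with earlier results of these data known. All members could be named. Of each list, up to 4 called genes with the smallest p were named per comparison. The labels number the libraries of every group as series 1 to 3 of independent experiments, so the number was taken to mark a shared experiment, and values with the replicate number as a block are given where they change a call. Deviations of libraries with the same number had correlations of 0.114 to 0.371 for siLRWD1-5 and scrambled. These were 0.0476 to 0.283 for siLRWD1-6 and scrambled and 0.0941 to 0.231 for siLRWD1-6 and siLRWD1-5. The lowest values, all for number 3, fell under the pairing minimum of 0.1 in the comparisons with siLRWD1-6. Scrambled replicate 3 correlated more with replicate 1 of siLRWD1-5 (0.138) and siLRWD1-6 (0.0815) than with replicate 3 of each. Same-number values for the other numbers (0.173 to 0.371) were above all those between different numbers (at most 0.138). Pairing was therefore not clear for number 3. In all, 15 alternatives were run, among them DESeq2 1.42.0, the size factors of that tool, no count filter and each library left out. Replicates are independent experiments per the labels. Library depth limits genes of a few CPM most.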

Additional observations from a re-analysis of the deposited data

How the results depend on the processing

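Of the values called, 14 of 18 (siLRWD1-5 against scrambled), 6 of 9 (siLRWD1-6 against scrambled) and 15 of 18 (siLRWD1-6 against siLRWD1-5) kept direction and call in all 15 alternatives. With siLRWD1-6 against scrambled, 2 members were lower with library size only, in DESeq2 and with only the compared groups. With each library left out in turn, that count was 1 to 3, the higher members were 5 to 10 and the median log2 fold change was 0.10 to 0.16, and members higher in siLRWD1-6 against siLRWD1-5 were 4 to 10. With the replicate number as a block, members higher and lower were 18 and 4 for siLRWD1-5 against scrambled, 10 and 1 for siLRWD1-6 against scrambled and 8 and 13 for siLRWD1-6 against siLRWD1-5. Calls over all genes grew too, to 2887 and 3038, 1472 and 1343, and 3335 and 3157 in that order, against 2527 and 2765, 1203 and 1062, and 3063 and 2856 without the block. The block ended no member's call, and the only calls of members it added are given beside the genes.

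Over all genes, siLRWD1-6 against scrambled gave 1203 higher and 1062 lower, 696 lower with only the compared groups, 2115 and 1838 without scrambled replicate 2, 702 and 546 without siLRWD1-6 replicate 1, 763 and 606 without replicate 2, and 613 lower without replicate 3. The cause was not tested.

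Of the values that changed sign, COL8A1 with siLRWD1-6 was called in 1 setting (0.66 without scrambled replicate 2), and the others in none. With library size only, COL5A3 was -0.01 (siLRWD1-6 against scrambled) and COL17A1 -0.04 (siLRWD1-6 against siLRWD1-5). With each library left out, siLRWD1-5 against scrambled gave COL12A1 -0.11 to 0.17, COL17A1 -2.19 to 0.57, COL4A4 -0.14 to 0.71 and PLOD1 -0.03 to 0.18. Likewise siLRWD1-6 against scrambled gave COL11A2 -0.21 to 0.20, COL17A1 -1.98 to 0.61, COL5A3 -0.21 to 0.15, COL6A2 -0.25 to 0.13, COL8A1 -0.13 to 0.66, COL9A3 -0.28 to 0.16 and PLOD1 -0.07 to 0.14. Finally siLRWD1-6 against siLRWD1-5 gave COL10A1 -0.40 to 0.06, COL16A1 -0.13 to 0.03, COL17A1 -0.36 to 0.71, COL18A1 -0.11 to 0.09, COL4A4 -0.03 to 0.82 and PLOD1 -0.12 to 0.05.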

Other observations

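Several rows of the table begin with COL but encode no collagen chain. COLEC12, a scavenger receptor with a collagen-like stretch, averaged 2.57 CPM with siLRWD1-5 and 20.7 CPM with siLRWD1-6, against 12.2 CPM with scrambled siRNA. COL4A3BP, a ceramide transfer protein, averaged 31.3 CPM with siLRWD1-5 and 52.0 CPM with siLRWD1-6, against 35.3 CPM with scrambled siRNA. COLQ, the collagen tail of acetylcholinesterase, averaged 0.638, 0.83 and 0.545 CPM in the same order of groups.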
